A study of Mus musculus with 8 samples.

Results

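The TNF ligand and receptor superfamilies were examined in livers of mice with diet-induced steatohepatitis that overexpressed AGXT in hepatocytes. A gene was counted as a member when its Ensembl identifier mapped to a protein-coding symbol beginning with Tnfsf or Tnfrsf, or to Tnf, Lta, Ltb, Ltbr, Fas, Fasl, Cd27, Cd40, Cd40lg or Cd70. This gave 42 members of 52636 counted genes, of which 18 encode ligands and 24 encode receptors. Ligands of this family are trimeric proteins, most of them made as membrane proteins and some shed by proteases. Their receptors either carry a cytosolic death domain, which can lead to caspase activation, or bind TRAF adaptors, which lead to NF-κB and MAP kinase signalling, while decoy receptors bind ligand without signalling. In liver, TNF, lymphotoxin, FAS ligand, TRAIL and TWEAK are known for roles in hepatocyte death, inflammation, and regeneration with growth of the bile duct-like progenitor compartment.

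The study compared 2 groups of male wild-type C57BL/6J mice with 4 mice in each, 1 liver library per mouse. AAV8-GFP mice received AAV8-TBG-GFP and AAV8-AGXT mice received AAV8-TBG-AGXT, which encodes human AGXT, the peroxisomal enzyme that detoxifies glyoxylate. AAV8 is an adeno-associated virus that reaches the liver well, and the TBG promoter restricts its cargo to hepatocytes. Both groups were injected at 7 weeks of age and, from 8 weeks of age, were fed a diet high in fat, cholesterol and fructose (the MASH diet) for 24 weeks, so that the diet and an AAV8 injection were common to all 8 mice and no untreated or chow-fed liver entered the comparison. The mice are named by their animal numbers, 303, 311, 314 and 315 in the AAV8-GFP group and 308, 309, 316 and 319 in the AAV8-AGXT group.

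The genes of each mouse together held 17095433 to 28780140 counted read pairs. All 8 hepatocyte markers examined, Alb among them, were expressed, and their summed level was 44570 to 53943 CPM (read pairs per 1e+06 counted on tested genes, scaled by TMM factors) in AAV8-GFP mice and 54933 to 75982 in AAV8-AGXT mice (to 65534 without mouse 308). Of these markers 1 was called higher, Cps1, which encodes the entry enzyme of the urea cycle (log2 fold change 0.96, SE 0.16, adjusted p = 0.0279, edgeR quasi-likelihood test with Benjamini-Hochberg adjustment), and it was called in 4 of 8 fits that left out a mouse. DESeq2 called 3 of the 8 hepatocyte markers higher (7.08% of all genes). Mouse Agxt itself was at 148 to 180 CPM in AAV8-GFP mice and 201 to 405 CPM with AAV8-AGXT (log2 fold change 0.90, SE 0.22, adjusted p = 0.0489, edgeR), and the share of reads from the human transgene that were counted on the mouse gene was not tested. AAV8-AGXT mouse 308 stood apart. It had the smallest share of read pairs on genes (56.3%, against 62.4% to 69.1% in the other mice). Its summed hepatocyte marker level was the highest, mostly from Alb (43389 CPM) and Apoa1 (20518 CPM). Its Cps1 level (1244 CPM) was the lowest of the AAV8-AGXT mice. It had the lowest level of all 8 mice in 18 of the 29 members tested (62.1%), whereas it was the lowest in 20.6% of all genes tested. Main values in which it is the lowest are given below with and without it. In bulk liver, fewer cells of a type and less RNA per cell cannot be told apart.

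Of the 42 members, 29 passed the filter on low counts, 9 ligands and 20 receptors, and every member had at least 1 read pair. The filter admitted 21 of these because they exceeded 0.476 CPM in all 8 mice. A further 7 exceeded it in all 4 AAV8-GFP mice but in only 1 to 3 AAV8-AGXT mice, which helped genes with lower AAV8-AGXT levels into the test (Cd27, Cd40, Fasl, Tnf, Tnfrsf13b, Tnfsf13 and the read-through gene Tnfsfm13), and Tnfsf14 passed through 6 mice of both groups. The 13 members that did not pass had 1 to 61 read pairs in all mice together and were below what this depth could compare. They were Lta, which encodes lymphotoxin alpha, the ligand genes Tnfsf11 and Tnfsf15, the receptor genes Tnfrsf8, Tnfrsf9, Tnfrsf13c and Tnfrsf17, and all 6 co-stimulatory ligand genes, Cd40lg, Cd70, Tnfsf4, Tnfsf8, Tnfsf9 and Tnfsf18, through which T cells and antigen-presenting cells exchange signals.

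By edgeR, a ligand and its receptor were called lower in AAV8-AGXT livers. Tnfsf12, which encodes the cytokine TWEAK, and Tnfrsf12a, which encodes its receptor Fn14, passed the test, and no member was called higher. They were 2 of 29 members tested (6.90%), against 1.90% of all genes tested that were called lower, and the 0 higher calls stood against 2.45% of all genes called higher. At an unadjusted p under 0.05, 8 members were lower (27.6%) and 0 higher, against 12.6% of all genes lower. By the DESeq2 Wald test, 5 members were lower (17.2%, against 6.93% of all genes) and 0 higher (7.08% of all genes). The 3 members added by DESeq2 were Ltb, Tnf and Tnfrsf10b. In 4 members every AAV8-AGXT mouse lay below every AAV8-GFP mouse (Tnfrsf12a, Tnfsf12, Tnfrsf10b and Cd27, 13.8%, against 7.63% of all genes), and in 0 members did every AAV8-AGXT mouse lie above (8.93% of all genes). Some of these members entered the test through higher AAV8-GFP levels, so the counts were also taken over the 21 members that exceeded the filter in all mice. Of those, 2 were called lower by edgeR and 4 by DESeq2, 5 were lower at an unadjusted p under 0.05 (23.8%), and 3 did not overlap (14.3%). The median log2 fold change was -0.45 over the 29 members tested, -0.84 over the 9 ligands and -0.33 over the 20 receptors, against 0.018 over all genes tested. It was -0.29 over the 21 members that exceeded the filter in all mice, of which 12 had a lower and 9 a higher fitted level. The ligand and receptor medians were not retaken over those 21. They include genes that exceeded the filter in all AAV8-GFP mice but not in all AAV8-AGXT mice. These were the ligands Tnf, Fasl, Tnfsf13 and Tnfsfm13 and the receptors Cd27, Cd40 and Tnfrsf13b. Without mouse 308 the medians were -0.24 over the 29 members, -0.75 over the 9 ligands and -0.18 over the 20 receptors, against -0.014 over all genes.

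**Figure D1:**
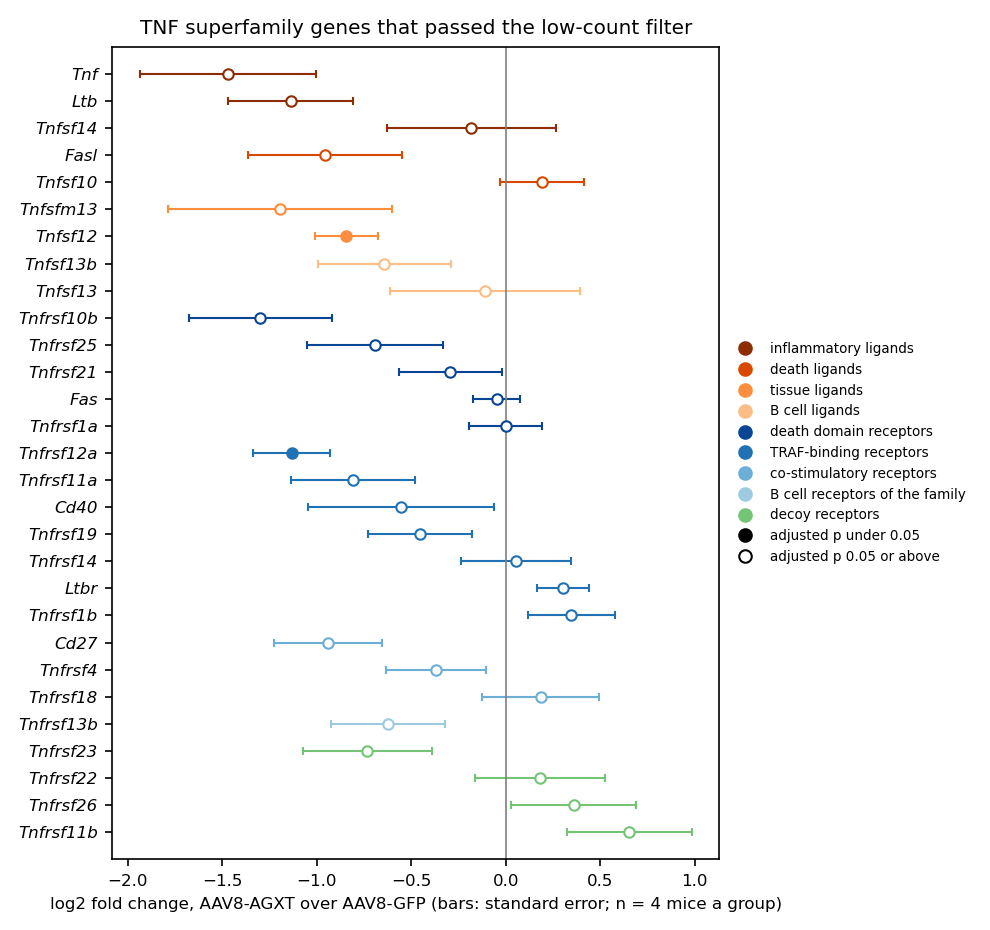
Log2 fold change of AAV8-AGXT over AAV8-GFP for the 29 members that passed the low-count filter, grouped by role (colours), with standard errors as bars and 4 mice in each group. Filled points, Tnfsf12 at -0.84 and Tnfrsf12a at -1.13, had an adjusted p under 0.05, and all open points did not.

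Tnfrsf12a is a small TRAF-binding receptor without a death domain that is induced in injured hepatocytes, progenitor cells and fibroblasts. It lies on chromosome 17 (GRCm38 chr17:23675445-23677468, minus strand). Its level was 71.5, 62.4, 62.6 and 43.0 CPM in AAV8-GFP mice 303, 311, 314 and 315, and 18.8, 24.6, 32.7 and 32.9 CPM in AAV8-AGXT mice 308, 309, 316 and 319. The highest AAV8-AGXT mouse was thus below the lowest AAV8-GFP mouse. Tnfrsf12a fell by 1.13 on the log2 scale (SE 0.20, 95% interval -1.59 to -0.68), from 59.9 ± 12.0 to 27.3 ± 6.81 CPM (SD, n = 4 each), a 2.19-fold difference (adjusted p = 0.0309, edgeR). Without mouse 308 the log2 fold change was -1.01 (adjusted p = 0.0469, edgeR). The adjusted p was above 0.05 in edgeR fits without mouse 319 (0.0774), 303 (0.0545), 311 (0.126) or 314 (0.0850), while the log2 fold change stayed between -1.26 and -1.01 in all 8 fits that left out a mouse.

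The sequence upstream of Tnfrsf12a is shown because it is the receptor that edgeR called lower. RefSeq gives the 250 bases before its start site as chr17:23677450-23677699 of GRCm38.p6, minus strand, printed 5′ to 3′ with GC boxes (GGGCGG, or CCGCCC on the other strand) in capitals:
Tnfrsf12a: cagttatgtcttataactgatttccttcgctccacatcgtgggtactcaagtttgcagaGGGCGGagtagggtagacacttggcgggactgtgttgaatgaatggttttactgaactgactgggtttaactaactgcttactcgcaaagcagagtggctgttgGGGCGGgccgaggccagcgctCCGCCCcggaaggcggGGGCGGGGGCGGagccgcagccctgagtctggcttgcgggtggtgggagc
A GC box occurred in the upstream 250 bases of 16 of the 32 members with a RefSeq promoter (50.0%), and in 32.7% of all 32817 mouse promoters of that length. A member counted if any of its promoters matched (36 promoters in the 32 members), while the other share counts each promoter, so the shares are not strictly alike. The run above held no match on either strand to the NF-κB consensus, to the AP-1 motif TGANTCA or to the TATA box TATAAA. A match or its absence describes these letters only.

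Tnfsf12 encodes TWEAK, a ligand made by macrophages and many other cells that signals through Fn14. It lies on chromosome 11 (GRCm38 chr11:69686250-69695849, minus strand), in a 13.5 kb stretch with Tnfsf13 and the read-through gene Tnfsfm13. Its level was 20.7, 24.7, 19.6 and 16.4 CPM in AAV8-GFP mice 303, 311, 314 and 315, and 8.49, 12.0, 13.0 and 11.8 CPM in AAV8-AGXT mice 308, 309, 316 and 319. Here too the groups did not overlap. Tnfsf12 fell by 0.84 on the log2 scale (SE 0.17, 95% interval -1.21 to -0.47), from 20.3 ± 3.42 to 11.3 ± 1.97 CPM (SD, n = 4 each), a 1.79-fold difference (adjusted p = 0.0349, edgeR). Its adjusted p was above 0.05 in edgeR fits without mouse 308 (0.0565), 319 (0.0885), 303 (0.0636), 311 (0.135) or 314 (0.0870), and its log2 fold change stayed between -0.93 and -0.75 in the 8 fits. Tnfsf12 shares 731 of its 1515 exonic bases with Tnfsfm13 on the same strand, and read pairs of the shared exons may have been left uncounted or given to the other gene, which makes its value uncertain. Tnfsfm13 itself had mean levels of 0.674 and 0.284 CPM in AAV8-GFP and AAV8-AGXT mice (log2 fold change -1.19, adjusted p = 0.228, edgeR).

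Markers of cells in which these genes can be expressed had the following levels. Of 8 recruited macrophage markers, 1 was called lower (Cd9, called in 4 of 8 fits that left out a mouse) and 0 higher, and their summed level was 393 to 905 CPM in AAV8-GFP mice and 97.1 to 411 CPM in AAV8-AGXT mice (200.2 or more without mouse 308). Of 6 cholangiocyte markers 0 were called, with a median log2 fold change of -1.24 (-1.03 without mouse 308). Their sums were 26.6 to 73.2 and 14.8 to 38.0 CPM (20.5 or more without mouse 308). Of 8 stellate cell and fibroblast markers, 1 was called lower (Acta2, called in 0 of these 8 fits), with sums of 402 to 616 and 253 to 506 CPM. Of 8 endothelial cell markers 0 were called, with a median log2 fold change of 0.18 (0.043 without mouse 308). Their sums were 168 to 264 and 164 to 323 CPM (to 258 without mouse 308). Of 6 dendritic cell markers 0 were called, with a median of -0.50 and sums of 23.1 to 28.1 and 16.2 to 21.7 CPM. DESeq2 called 4 recruited macrophage markers, 4 cholangiocyte markers and 2 stellate cell and fibroblast markers lower (6.93% of all genes), and 0 higher. It called 0 endothelial and 0 dendritic cell markers. None of these markers was at 0 in all mice. Their part in the lower Tnfsf12 and Tnfrsf12a levels was not tested.

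The inflammatory ligands are Tnf, Lta, Ltb and Tnfsf14, which encode TNF, the lymphotoxin subunits alpha and beta, and LIGHT. Tnf, Ltb and Lta are neighbours within 10.9 kb of chromosome 17 (chr17:35194439-35205351), and Lta had 17 read pairs in all mice. None of the 3 tested passed the test, and their median log2 fold change was -1.14. Of these, Tnf exceeded the filter in 4 AAV8-GFP mice but in only 2 AAV8-AGXT mice.

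Tnf was at 0.703, 2.75, 1.38 and 1.76 CPM in AAV8-GFP mice 303, 311, 314 and 315, and at 0.276, 0.481, 0.770 and 0.802 CPM in AAV8-AGXT mice 308, 309, 316 and 319. The groups overlapped through AAV8-GFP mouse 303, which lay below AAV8-AGXT mice 316 and 319. These levels rest on 18 to 90 read pairs in AAV8-GFP mice and 4 to 17 in AAV8-AGXT mice. Tnf had a log2 fold change of -1.47 (SE 0.46, 95% interval -2.51 to -0.44, adjusted p = 0.0864, edgeR), and DESeq2 gave an adjusted p of 0.0315. Without AAV8-GFP mouse 311, which had the highest level, the log2 fold change was -1.11 (adjusted p = 0.257, edgeR), and without mouse 308 it was -1.28 (adjusted p = 0.161, edgeR).

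Ltb was at 3.87, 7.35, 5.44 and 3.13 CPM in AAV8-GFP mice 303, 311, 314 and 315, and at 1.31, 3.24, 2.26 and 2.17 CPM in AAV8-AGXT mice 308, 309, 316 and 319. The only overlap was between mouse 309 and mouse 315. Its log2 fold change was -1.14 (SE 0.33, 95% interval -1.87 to -0.40, adjusted p = 0.0751, edgeR), and DESeq2 gave an adjusted p of 0.0140. Without mouse 308 it was -0.98 (adjusted p = 0.132, edgeR). Tnfsf14, a ligand of both the lymphotoxin beta receptor and the receptor HVEM, was at 0.743 ± 0.272 and 0.649 ± 0.317 CPM (SD, n = 4 each) and did not pass the test.

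The 2 neighbouring ligand genes differ in their upstream bases, which are shown because both had lower fitted levels. RefSeq gives them as chr17:35194257-35194506 (Ltb, plus strand) and chr17:35202008-35202257 (Tnf, minus strand) of GRCm38.p6. Capitals mark a match to the NF-κB consensus in Ltb (a run of guanines, a purine, any bases, pyrimidines and a pair of cytosines, read here on the opposite strand), and a GC box and a TATA box in Tnf:
Ltb: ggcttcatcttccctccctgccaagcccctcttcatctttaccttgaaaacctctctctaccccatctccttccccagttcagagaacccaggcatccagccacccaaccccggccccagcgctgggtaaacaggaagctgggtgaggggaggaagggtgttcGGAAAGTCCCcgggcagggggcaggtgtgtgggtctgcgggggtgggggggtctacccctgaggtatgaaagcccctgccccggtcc
Tnf: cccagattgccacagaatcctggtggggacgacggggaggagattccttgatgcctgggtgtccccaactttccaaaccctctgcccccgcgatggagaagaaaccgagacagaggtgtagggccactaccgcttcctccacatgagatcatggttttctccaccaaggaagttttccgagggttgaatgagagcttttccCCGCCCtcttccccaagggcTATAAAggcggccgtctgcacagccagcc
The NF-κB consensus occurred in the upstream 250 bases of 4 of 32 members (Ltb, Tnfrsf25, Tnfrsf8 and Tnfrsf9, 12.5%) and in 7.25% of all promoters of that length. The TATA box occurred in 6 members (18.8%) and 12.4% of all promoters, and TGANTCA in 6 members (18.8%) and 6.75% of all promoters. Members were again counted by gene and the other shares by promoter.

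None of the receptors of these ligands passed the test. Tnfrsf1a encodes TNFR1, the death domain receptor for TNF that most cells carry. It was at 115, 120, 160 and 110 CPM in AAV8-GFP mice 303, 311, 314 and 315, and at 100.4, 110, 117 and 177 CPM in AAV8-AGXT mice 308, 309, 316 and 319, so that the groups overlapped fully. Its log2 fold change was 0.0009 (95% interval -0.43 to 0.43, adjusted p = 0.999, edgeR), and its sign changed with the scaling. Tnfrsf1b encodes TNFR2, the TRAF-binding TNF receptor found mostly on leukocytes and endothelium. It was at 47.9, 76.8, 54.7 and 65.9 CPM in AAV8-GFP mice and at 77.5, 49.2, 74.8 and 110.5 CPM in AAV8-AGXT mice in the same order (log2 fold change 0.35, SE 0.23, 95% interval -0.17 to 0.86, adjusted p = 0.366, edgeR). The groups overlapped, with AAV8-AGXT mouse 319 highest. Ltbr, the lymphotoxin beta receptor, was at 143, 134, 143 and 147 CPM in AAV8-GFP mice and at 189, 136, 164 and 210 CPM in AAV8-AGXT mice. Mouse 309 lay within the AAV8-GFP range and the others above it (log2 fold change 0.30, SE 0.14, 95% interval -0.01 to 0.61, adjusted p = 0.198, edgeR). The interval includes 0, and plain total counts shift all genes by a median of -0.237 log2 units against TMM.

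**Figure D2:**
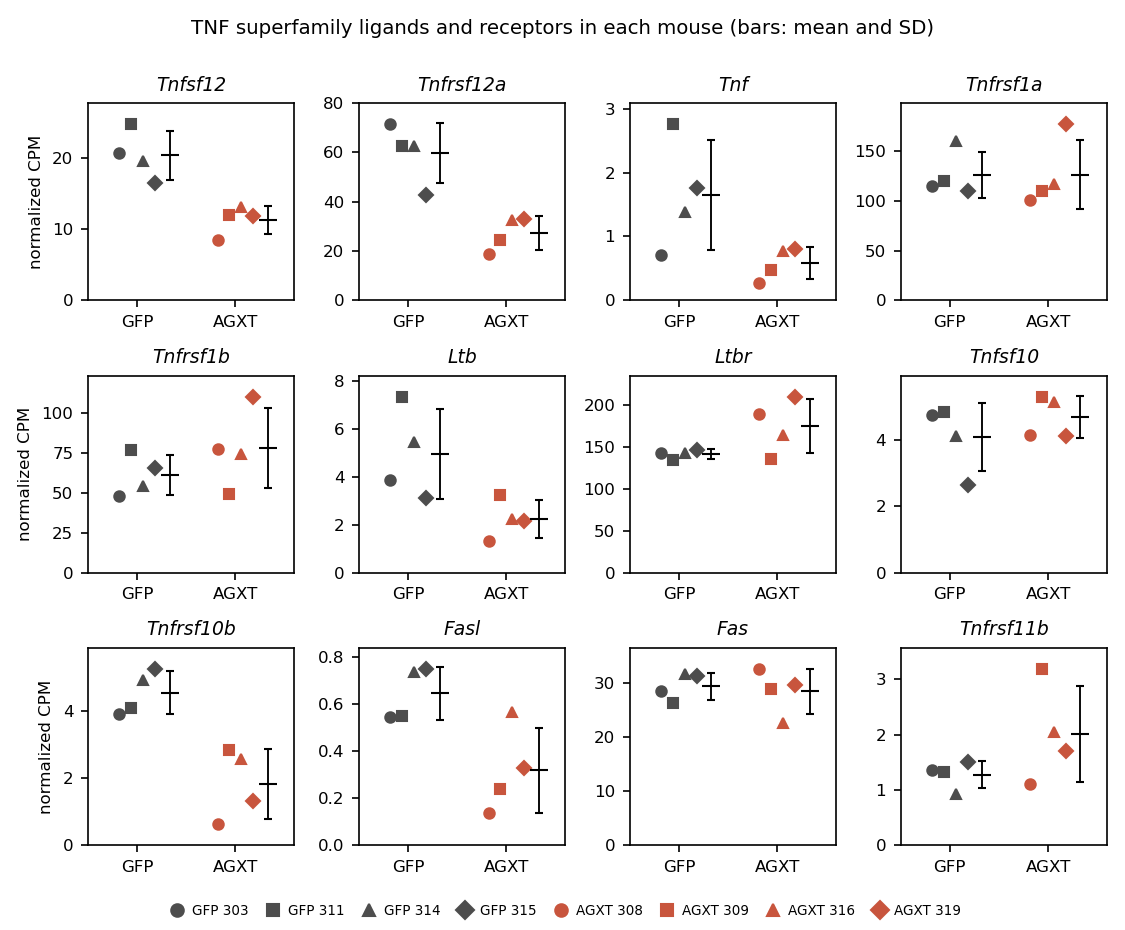
TMM-scaled CPM in each mouse for 12 ligands and receptors, on axes that start at 0, with the mean and SD of 4 mice beside each group. The groups are separate for Tnfsf12, Tnfrsf12a and Tnfrsf10b and overlap in the other panels.

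Among the death ligands, which trigger apoptosis through death domain receptors, no gene passed the test. Fasl, the FAS ligand of cytotoxic lymphocytes, was at 0.547, 0.551, 0.738 and 0.750 CPM in AAV8-GFP mice 303, 311, 314 and 315, and at 0.138, 0.240, 0.565 and 0.330 CPM in AAV8-AGXT mice 308, 309, 316 and 319. Only mouse 316 lay within the AAV8-GFP range (log2 fold change -0.96, SE 0.41, adjusted p = 0.167, edgeR; -0.75 without mouse 308). Its receptor Fas was at 28.5, 26.2, 31.6 and 31.2 CPM and at 32.5, 28.8, 22.6 and 29.6 CPM in the same order. The Fas levels of the groups overlapped (log2 fold change -0.05, 95% interval -0.33 to 0.23, adjusted p = 0.841, edgeR).

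Tnfsf10, which encodes TRAIL, was at 4.72, 4.84, 4.11 and 2.65 CPM in AAV8-GFP mice and at 4.14, 5.29, 5.14 and 4.11 CPM with AAV8-AGXT (log2 fold change 0.19, 95% interval -0.30 to 0.68, adjusted p = 0.617, edgeR). The groups overlapped. Tnfrsf10b, the mouse TRAIL death receptor, was at 3.90, 4.10, 4.94 and 5.25 CPM in AAV8-GFP mice 303, 311, 314 and 315, and at 0.621, 2.82, 2.57 and 1.32 CPM in AAV8-AGXT mice 308, 309, 316 and 319. The groups did not overlap, and mouse 308 was the lowest. The log2 fold change was -1.30 (SE 0.38, 95% interval -2.14 to -0.45, adjusted p = 0.0752, edgeR), DESeq2 gave an adjusted p of 0.00959, and without mouse 308 the values were -1.04 and an adjusted p of 0.0891 (edgeR).

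The remaining death domain receptors were Tnfrsf21 and Tnfrsf25. Tnfrsf21, which encodes DR6, was at 8.47, 13.2, 14.4 and 12.4 CPM in AAV8-GFP mice and at 5.32, 14.0, 11.1 and 9.11 CPM in AAV8-AGXT mice. The groups overlapped (log2 fold change -0.29, adjusted p = 0.526, edgeR), and without mouse 308 the log2 fold change was -0.11. Tnfrsf25, the lymphocyte receptor DR3, had a log2 fold change of -0.69 (adjusted p = 0.254, edgeR).

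The other TRAF-binding receptors included RANK, CD40 and TROY. Tnfrsf11a, which encodes RANK, was at 3.75, 6.61, 6.09 and 4.32 CPM in AAV8-GFP mice 303, 311, 314 and 315, and at 1.24, 3.49, 3.85 and 3.21 CPM in AAV8-AGXT mice 308, 309, 316 and 319. The groups overlapped only at mice 303 and 316 (log2 fold change -0.81, SE 0.33, adjusted p = 0.156, edgeR; -0.58 without mouse 308). Cd40, a receptor of B cells and macrophages, was at 2.23, 2.88, 2.40 and 2.43 CPM and at 0.207, 1.62, 2.93 and 1.89 CPM in the same order. Mouse 308 was far below the rest, on 3 read pairs, and mouse 316 was the highest of all 8 (log2 fold change -0.55, adjusted p = 0.503, edgeR; -0.22 without mouse 308). Tnfrsf19 (TROY) and Tnfrsf14 (HVEM) had log2 fold changes of -0.45 and 0.056, with adjusted p-values of 0.323 and 0.925 (edgeR).

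Co-stimulatory receptors of T cells were scarce. Cd27 was at 0.898, 0.857, 1.20 and 1.15 CPM in AAV8-GFP mice 303, 311, 314 and 315, and at 0.483, 0.541, 0.668 and 0.425 CPM in AAV8-AGXT mice 308, 309, 316 and 319. The groups did not overlap, on 23 to 28 read pairs against 7 to 13, and the log2 fold change of -0.94 (SE 0.28, 95% interval -1.57 to -0.30) had an adjusted p of 0.0805 (edgeR). Tnfrsf4 (OX40) and Tnfrsf18 (GITR) had log2 fold changes of -0.37 and 0.18, with adjusted p-values of 0.406 and 0.744 (edgeR). Of 9 T cell markers 8 were tested and 0 called, with a median log2 fold change of -0.89 (-0.77 without mouse 308). Their sums were 11.9 to 19.5 CPM in AAV8-GFP mice and 5.80 to 12.9 CPM in AAV8-AGXT mice (7.55 or more without mouse 308). Of 6 NK cell markers 4 were tested and 0 called, with sums of 4.80 to 7.99 and 1.66 to 5.96 CPM (2.70 or more without mouse 308). DESeq2 called 3 of the T cell markers lower (6.93% of all genes) and 0 of the NK cell markers. The part of these markers in the Cd27, Fasl and Ltb values was not tested.

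For B cell survival signals, Tnfsf13b (BAFF) was at 1.76, 1.90, 2.03 and 1.10 CPM in AAV8-GFP mice and at 0.690, 0.721, 1.80 and 1.09 CPM in AAV8-AGXT mice. The groups overlapped through mice 315 and 316 (log2 fold change -0.64, adjusted p = 0.277, edgeR; -0.51 without mouse 308). Tnfsf13 (APRIL), which shares 983 of 1637 exonic bases with the read-through gene and is uncertain for that reason, and the receptor gene Tnfrsf13b (TACI) had log2 fold changes of -0.11 and -0.62, with adjusted p-values of 0.912 and 0.220 (edgeR). Of 8 B cell and plasma cell markers 0 were called, and their sums were 10.7 to 20.6 and 9.55 to 16.6 CPM.

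The decoy receptors were the only role with a median above 0, at 0.27 over 4 tested genes, and none was called. Tnfrsf11b encodes osteoprotegerin, which captures RANK ligand and TRAIL. It was at 1.37, 1.32, 0.923 and 1.50 CPM in AAV8-GFP mice 303, 311, 314 and 315, and at 1.10, 3.18, 2.05 and 1.70 CPM in AAV8-AGXT mice 308, 309, 316 and 319. All AAV8-AGXT mice but 308 lay above the AAV8-GFP range (log2 fold change 0.65, SE 0.33, 95% interval -0.08 to 1.39, adjusted p = 0.242, edgeR). Tnfrsf22, Tnfrsf23 and Tnfrsf26 form a 78.2 kb cluster on chromosome 7. Tnfrsf23 was at 2.81, 1.74, 1.11 and 1.37 CPM and at 0.828, 1.44, 0.976 and 0.991 CPM in the same order, with overlap (log2 fold change -0.73, adjusted p = 0.205, edgeR). Tnfrsf22 and Tnfrsf26 had log2 fold changes of 0.18 and 0.36, with adjusted p-values of 0.777 and 0.523 (edgeR), so that the 3 neighbours did not share a sign.

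Per kilobase of exon, the 5 members with the highest levels were receptors. In AAV8-GFP mice Ltbr was highest at 60.2 ± 2.31 CPM per kb, followed by Tnfrsf1a at 48.7 ± 8.83, Tnfrsf12a at 31.0 ± 6.23, Tnfrsf1b at 16.1 ± 3.33, Fas at 14.2 ± 1.22 and Tnfsf12 at 13.4 ± 2.26 (SD, n = 4). The last 3 did not differ by more than their spread, and every other tested member was at or below 3.34 CPM per kb. Per kb, Tnfsf12 was the highest ligand in both groups. The length used for it includes the 731 of 1515 exonic bases that it shares with Tnfsfm13. Read pairs there may have been left uncounted, so its place among the receptors is uncertain. In AAV8-AGXT mice Tnfrsf12a was at 14.1 ± 3.52 CPM per kb and stood just behind Tnfrsf1b at 20.4 ± 6.58, a difference within their spread. Tnf went from the 12th to the 20th place, with levels of 1.01 ± 0.523 and 0.355 ± 0.153 CPM per kb.

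**Figure D3:**
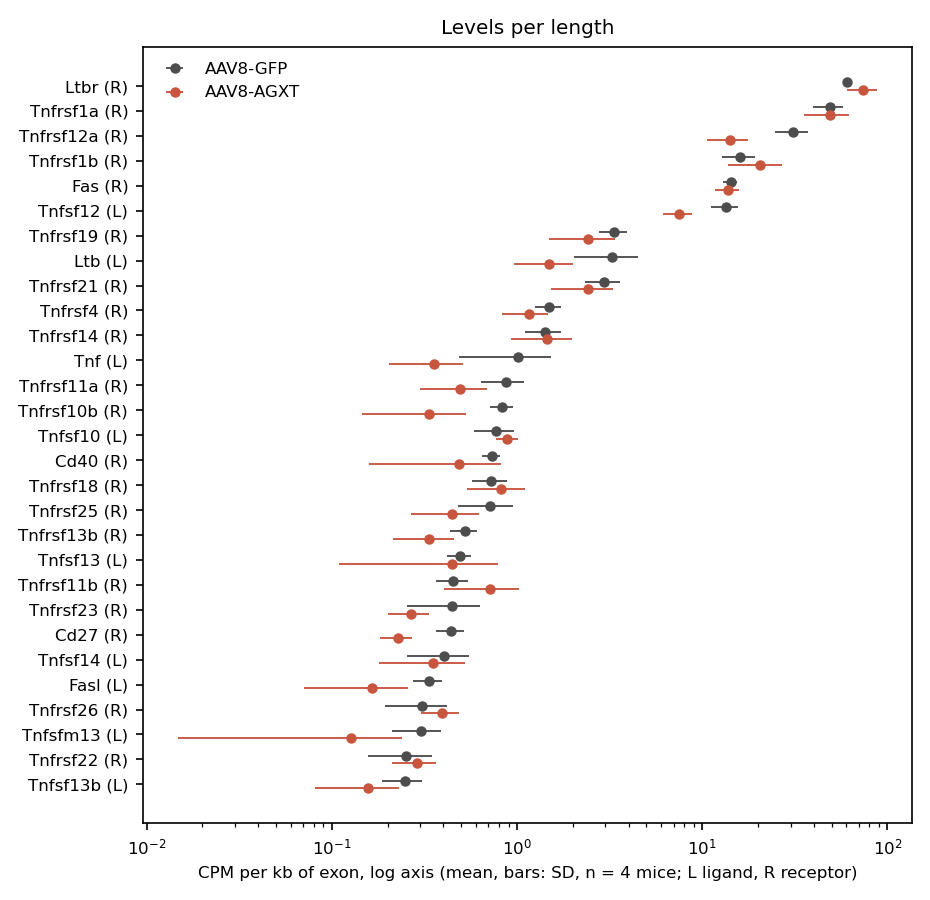
Level of each tested member in CPM per kb of exon on a log axis, as mean and SD of 4 AAV8-GFP mice (grey) and 4 AAV8-AGXT mice (red). 5 receptors and Tnfsf12 lie above 7 CPM per kb in both groups, and all other members below 4.

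Across mice, the lower values were not spread evenly over the AAV8-AGXT group. Mouse 308 was the lowest of 8 in 18 members, the other AAV8-AGXT mice in 1 or 2 each, and each AAV8-GFP mouse in 1 or 2. Summed over the 9 tested and 9 untested ligands, AAV8-GFP mice had 28.2 to 45.9 CPM and AAV8-AGXT mice 16.0 to 25.5 CPM (22.98 or more without mouse 308), without overlap. Tnfsf12 supplied a large part of these sums, and over the other ligands the ranges were 11.8 to 21.2 and 7.53 to 13.3 CPM, which overlapped. Summed over the 24 receptors the ranges were 449 to 510 and 397 to 602 CPM, which overlapped.

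**Figure D4:**
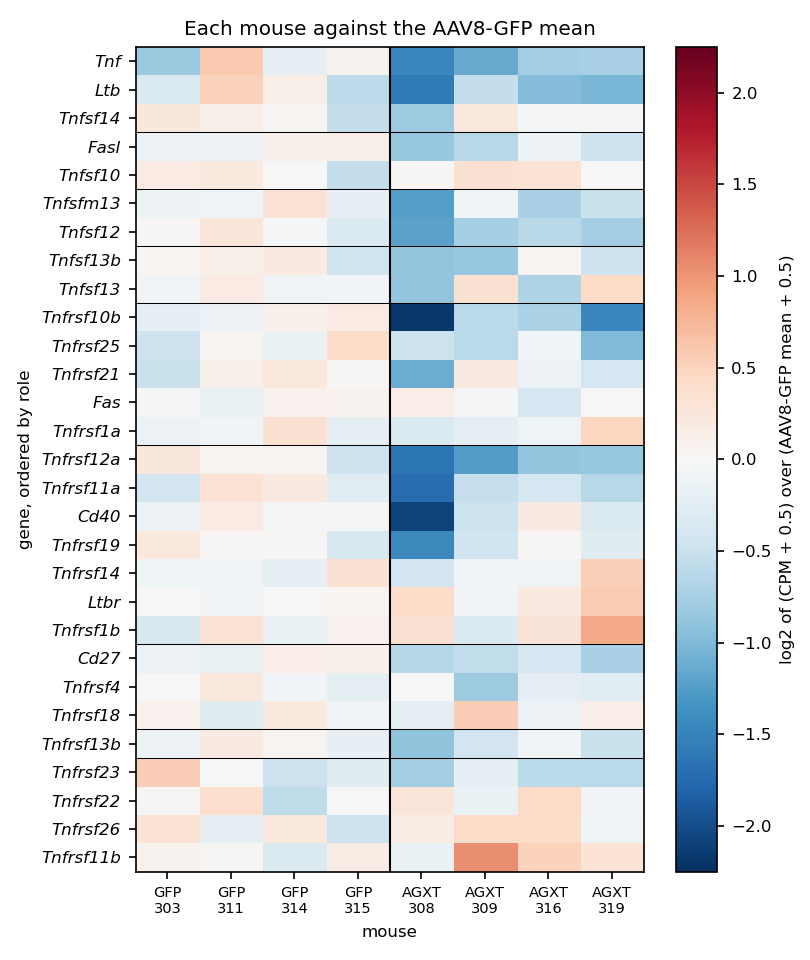
Level of each tested member (lines, ordered by role) in each mouse (columns) as the log2 ratio of CPM plus 0.5 over the AAV8-GFP mean plus 0.5, with blue lower and red higher. The column of mouse 308 holds the darkest blue cells. In 13 of the 29 members (44.8%), Tnfsf12 and Tnfrsf12a among them, all 4 AAV8-AGXT mice are below the AAV8-GFP mean. The share of all genes for which this holds was not taken.

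Downstream of the receptors, 34 adaptors and signalling proteins were examined, of which 33 were tested. Of these, 3 fell (against 1.90% of all genes) and 2 rose (against 2.45%) with AAV8-AGXT by edgeR. DESeq2 called 4 lower (against 6.93% of all genes) and 3 higher (against 7.08%). The list had a median of 0.020 on the log2 scale, close to that of all genes. The 3 that fell were Tnfaip3, Traf1 and Traf2. Tnfaip3 encodes A20, a ubiquitin-editing brake on NF-κB that is itself an NF-κB target. It was at 13.2, 18.9, 15.4 and 13.1 CPM in AAV8-GFP mice 303, 311, 314 and 315, and at 4.56, 8.77, 7.91 and 7.03 CPM in AAV8-AGXT mice 308, 309, 316 and 319, without overlap (log2 fold change -1.10, SE 0.21, adjusted p = 0.0341, edgeR). Traf1, another inducible gene, went from 6.03 ± 0.976 to 2.82 ± 0.906 CPM (SD, n = 4 each, as for the genes that follow; log2 fold change -1.09, SE 0.26, adjusted p = 0.0465, edgeR). Traf2, the adaptor that recruits ubiquitin ligases to both TNF receptors, went from 23.3 ± 1.83 to 15.5 ± 1.61 CPM (log2 fold change -0.58, SE 0.11, adjusted p = 0.0344, edgeR).

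The signalling genes that rose were Map3k5, which encodes the stress kinase ASK1, from 44.6 ± 6.99 to 74.4 ± 15.7 CPM (log2 fold change 0.74, SE 0.16, adjusted p = 0.0426, edgeR), and Otulin, which encodes a deubiquitinase of linear ubiquitin chains, from 35.2 ± 1.06 to 51.5 ± 9.62 CPM (log2 fold change 0.55, SE 0.13, adjusted p = 0.0465, edgeR). All 5 had no overlap between groups. Of the 33 tested, 5 lay wholly lower (7.63% of all genes) and 5 wholly higher (8.93% of all genes). These included Birc3 and Tnip1 on the lower side, and Traf6, Casp8 and Chuk on the higher side, which were not called. With total counts in place of TMM, 3 signalling genes were called lower and 0 higher (adjusted p = 0.112 for Otulin and 0.0601 for Map3k5, edgeR). Without mouse 308, Tnfaip3 alone was called lower (adjusted p = 0.0440, edgeR) and 0 were higher, and without mouse 303, 311, 314 or 319 no signalling gene was called. Traf1 was called in 0 of the 8 fits without a mouse (adjusted p 0.0550 to 0.164, edgeR).

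**Figure D5:**
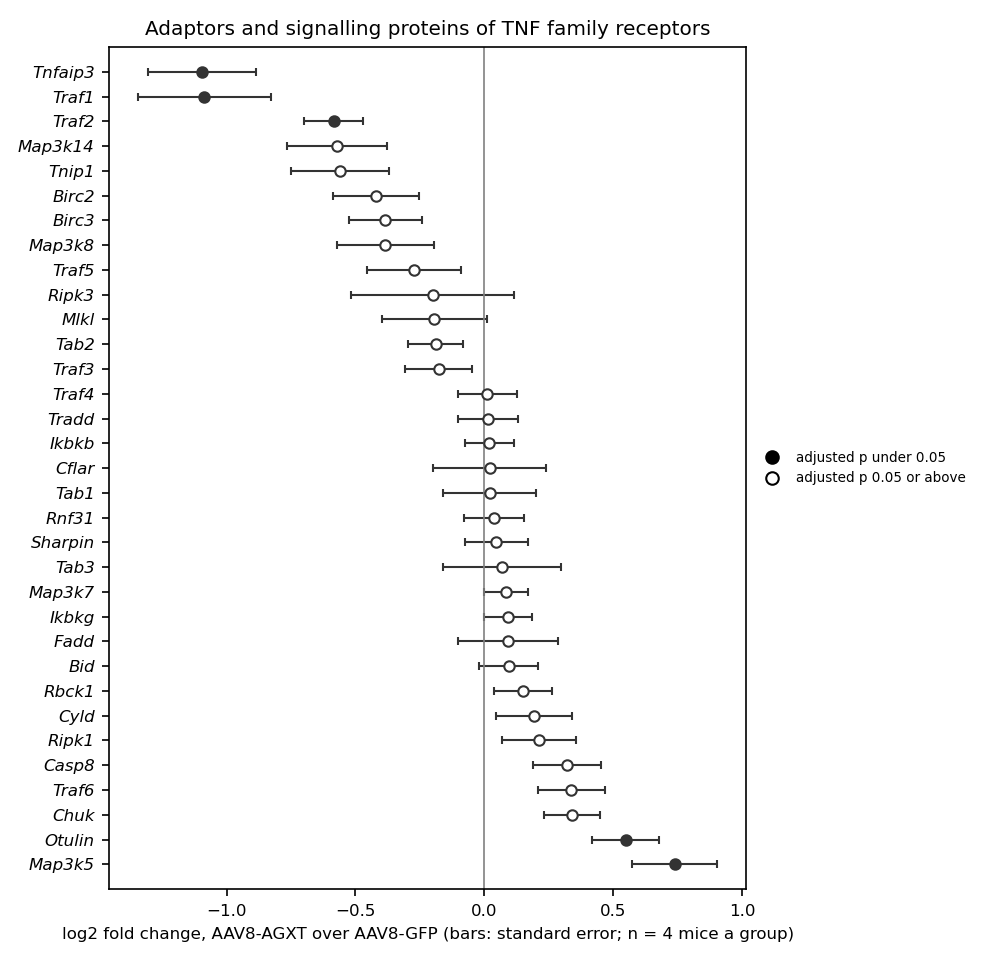
Log2 fold change of AAV8-AGXT over AAV8-GFP with standard errors for 33 adaptors and signalling proteins of TNF family receptors, 4 mice in each group. Filled points had an adjusted p under 0.05: Tnfaip3, Traf1 and Traf2 on the lower side, Otulin and Map3k5 on the higher side.

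Of 7 genes for shedding proteases and their cofactors, Adam17 among them, 0 were called, and the smallest adjusted p was 0.0651 (Rhbdf1, edgeR). DESeq2 called 1 of the 7 lower (6.93% of all genes). Of 15 genes known to be induced by TNF, 10 were tested and 1 fell: Cxcl2, a neutrophil chemokine, at 1.17, 2.02, 1.38 and 2.21 CPM in AAV8-GFP mice 303, 311, 314 and 315 and at 0.621, 0.601, 0.514 and 0.519 CPM in AAV8-AGXT mice 308, 309, 316 and 319. The groups did not overlap (log2 fold change -1.59, SE 0.30, adjusted p = 0.0335, edgeR), and the call was lost without mouse 308 (0.0565), 316 (0.0532), 319 (0.0885), 311 (0.126) or 314 (0.0798). Over the 10, the median log2 fold change was -0.69 (-0.60 without mouse 308). In 6 of them every AAV8-AGXT mouse lay below every AAV8-GFP mouse (7.63% of all genes), and DESeq2 called 7 lower (6.93% of all genes). Of 8 Kupffer cell markers, 1 was called higher (Cd163, called in 6 of the 8 fits without a mouse). Their sums overlapped, at 240 to 380 and 198 to 802 CPM (283 or more without mouse 308). The upper end was mouse 319, with Marco at 156 CPM against 5.94 to 12.4 CPM in the other AAV8-AGXT mice. Of 3 tested neutrophil markers 0 were called, with sums of 5.38 to 14.2 and 2.42 to 9.91 CPM (3.12 or more without mouse 308). DESeq2 called 2 of the Kupffer cell markers higher (7.08% of all genes) and 0 of the neutrophil markers. The part of these cells in the Tnf and Cxcl2 values was not tested. Of the superfamily genes that carry other names, Eda, Eda2r, Edar, Ngfr and Relt, 4 were tested and 0 called.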

How the data were processed

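Total RNA from mouse livers was sequenced as stranded mRNA libraries. Per the labels and the study's methods, the authors used Trimmomatic 0.35 for trimming, HISAT2 2.1.0.13 for alignment to GRCm38, and HTSeq for counting on genes of Ensembl. The deposited values are raw counts per gene, whole numbers without normalization. The strand option of the counting is not given in the sources used here, so overlapping genes are uncertain. HTSeq's tallies of uncounted reads were left out of library sizes, and counts on genes were 56.3% to 69.1% of all tallied read pairs. Mice were grouped by the treatment in their labels, which give no batch. Libraries came from separate mice.

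Genes were named with GENCODE M21 (52489 of 52636 matched). The groups were compared in edgeR 4.0.16 (R 4.3.3) by a quasi-likelihood test of treatment, without other terms, after filterByExpr (15248 genes tested) and TMM scaling. P-values were adjusted by the Benjamini-Hochberg method over all genes tested, and calls needed an adjusted value under 0.05. Standard errors were the unshrunken coefficient over the root of F, and 95% intervals from the t distribution with the degrees of freedom of the fit. CPM were scaled by TMM factors. The common biological coefficient of variation was 23.3%. Counting error matters as well for scarce genes. Among the tested members, Cd27, Fasl, Tnf and Tnfsfm13 had few read pairs in AAV8-AGXT mice. The procedure was tested on simulated counts.

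The members, lists and tests were chosen with earlier results of these data known. Values by mouse are given for members with an adjusted p under 0.05, then for those with the smallest p until there were 10, and for 15 ligands and receptors with known roles in liver, together 18 members. Of the other lists, genes with an adjusted p under 0.05 are named, at most 6 per list. Alternatives were DESeq2 1.42.0, limma-voom (limma 3.58.1), robust edgeR, DESeq2 size factors, total counts, no low-count filter, at least 10 counts in every mouse, and each mouse left out. After the data had been seen they were extended to the called genes of the lists, and medians and sums without mouse 308, sums without Tnfsf12, and counts over members past the filter in all mice were added. Promoters were the 250 bases before each RefSeq start site in GRCm38.p6.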

Additional observations from a re-analysis of the deposited data

How the results depend on the processing

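Counts of members and single genes kept their direction under most alternatives, and the calls rested on few mice. The number of members called lower was 2 as reported, 5 by DESeq2, and 0 to 2 when a mouse was left out. It was 1 without mouse 308 and 0 without mouse 303, 311, 314 or 319. Over all genes tested, 664 were called with all 8 mice. The fits without mouse 303, 311, 314 or 319 called 193, 2, 15 and 14, and the fit without mouse 308 called 177. Those without mouse 309, 315 or 316 called 643, 629 and 411. The cause was not tested. Tnfrsf12a was called in 11 of 15 alternatives (adjusted p up to 0.126) and Tnfsf12 in 10 of 15 (up to 0.135), in both cases by every alternative that kept all 8 mice. Cd27 was called with total counts alone (adjusted p = 0.0484, edgeR), and no member was called higher in any fit. Total counts without a composition factor moved the median log2 fold change of all genes by -0.237, and DESeq2 size factors by -0.0145. With total counts, 9 members lay wholly lower in place of 4, and the share of all genes that did so was 17.6% in place of 7.63%. Signalling genes called higher went from 2 to 1 with at least 10 counts in every mouse, 1 with limma-voom, 0 with total counts, and 0 to 1 when a mouse was left out, while those called lower were 3 as reported and 0 to 2 when a mouse was left out. Tnfrsf1a, with a log2 fold change near 0, was -0.038 with at least 10 counts, -0.012 with DESeq2 size factors and with DESeq2, -0.028 with limma-voom, -0.018 without a filter, -0.24 with total counts, and -0.20 to 0.12 when a mouse was left out. Fas was -0.13 to 0.051 when a mouse was left out, and Tnfsf10 was -0.045 with total counts. No paired analysis was possible because the animal numbers are not shared between the groups.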
